A study of Mus musculus with 4 samples.

Results

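Ccl5 low T cells of the mouse spinal cord are described here: T cells that carried almost no RNA of the chemokine gene Ccl5, which marks effector and effector memory T cells. A cell belonged to this class when it held at least 2 UMIs (unique molecular identifiers, counts of distinct RNA molecules) of the CD3 genes Cd3e, Cd3d and Cd3g together and fewer than 3 UMIs of Ccl5. It also had no UMI of Dntt or Cd79a (immature lymphocyte and B cell genes), under 0.5% of its UMIs from C1qa, C1qb and C1qc (macrophage genes) and fewer than 4 UMIs of Cldn5, Flt1 and Pecam1 (endothelial genes). The rule found 89 cells among the 20454 cells kept from 4 libraries. The 4 groups were P301S neg CD8 WT mice at 30 weeks, P301S hom CD8 WT mice at 30 weeks, P301S hom CD8 WT mice at 33 weeks and P301S hom CD8 KO mice at 30 weeks, where neg and hom are read from the labels as negative and homozygous. P301S is a mutant form of human tau used to model tauopathy, and the labels do not name the promoter of the transgene. Which of the CD8 genes was altered is not given by the label CD8 KO. Each group was 1 library of cells pooled from the cords of 2 mice, so values below compare libraries, no test between groups was made, and intervals (95%) cover counting error only.

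T cells recognise antigen through a receptor signalling through the CD3 chains. Naive T cells, which have not yet met antigen, recirculate between blood and lymph nodes and carry the homing receptor gene Ccr7 with the transcription factors Lef1 and Tcf7. CD4 cells direct other immune cells, regulatory T cells (defined by Foxp3) restrain them, and gamma delta T cells use a receptor of gamma and delta chains, with a type 17 subset that makes interleukin 17 and resides in barrier tissues and the meninges.

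The 4 libraries held 36331214 to 43531426 UMIs over 5107 to 6433 barcodes. Ccl5 low T cells were 15 of 5738 kept cells (0.261%, exact interval 0.146 to 0.431) in P301S neg, 18 of 4751 (0.379%) in P301S hom at 30 weeks, 37 of 4830 (0.766%) at 33 weeks and 19 of 5135 (0.370%) in the library labelled CD8 KO. They were 45.5%, 32.7%, 49.3% and 38.8% of all T cells found by the same rule without its Ccl5 limit. Their median UMIs per cell were 4849, 2935, 2796 and 2531, so the P301S neg cells were the deepest, and the class sums were 76662, 59721, 120130 and 55904 UMIs. Pairs of libraries shared 3 to 12 kept barcodes, none of them a barcode of these cells.

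Most of the 89 cells were T cells by genes beyond the rule's own: 82 held a UMI of the receptor constant genes Trac, Trbc1 or Trbc2, 56 of Trac, 52 of Ms4a4b (a T cell membrane protein) and 21 each of Lef1 and Ccr7. Cells near the Ccl5 limit were few in the CD8 WT libraries and more frequent under the CD8 KO label. Ccl5 was at 0 in 14, 15, 36 and 16 cells of the 4 libraries in the order above, and at 1 or 2 UMIs in 1, 3, 1 and 3 cells just inside it. Just outside it, 0, 0, 3 and 5 cells held 3 to 5 UMIs, while the Ccl5 high T cells had medians of 35, 22, 20 and 15 UMIs. At the CD3 limit, 8 of the 89 cells had exactly 2 CD3 UMIs.

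A few members carried another cell type's RNA. In 9 cells at least 2% of UMIs came from neutrophil, erythroid, or B and antigen-presenting genes, a limit chosen after these values were seen. Of these, 5 had between 399 and 1831 UMIs of the neutrophil gene S100a8 beside 2 UMIs of Cd3d and no Trac, Trbc or Trdc UMI: 1 in P301S neg, 2 in P301S hom at 30 weeks and 2 at 33 weeks. Another 3 cells, at 33 weeks, held 1117 to 3022 UMIs of the haemoglobin gene Hbb-bs, and 1 cell in the library labelled CD8 KO had 234 UMIs of Cd74, the invariant chain of MHC class II, among 11810. These 9 are called the set-aside cells, and 80 cells (14, 16, 32 and 18) stay without them. No cell of the 89 was called a doublet by scrublet.

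Cd8a and Cd8b1 encode the 2 chains of the CD8 co-receptor and check the CD8 label. Cd8a UMIs numbered 25 in P301S neg, 1 in P301S hom at 30 weeks, 3 at 33 weeks and 1 in the library labelled CD8 KO, in 7 of 15, 1 of 18, 3 of 37 and 1 of 19 cells. Cd8b1 UMIs numbered 55, 4, 17 and 2. Cd8a therefore separated P301S neg from the other libraries but not the label, since the P301S hom Ccl5 low cells had almost none in any library. The Ccl5 high T cells beside them carried it in 22.2%, 56.8%, 55.3% and 0% of cells (0 of 30 under the CD8 KO label). Endothelial cells went the other way: 44.6% of them held Cd8a in the library labelled CD8 KO against at most 0.0449% elsewhere. Since 3' reads need not cover a deleted segment, directions for this library rest on its label.

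Naive-like cells, holding at least 2 of 4 naive markers that include Lef1, Ccr7 and Igfbp4 (an insulin-like growth factor binding protein of naive T cells), numbered 17 of 89. They were 8 of 15 cells in P301S neg (53.3%, 26.6 to 78.7), 2 of 18 in P301S hom at 30 weeks (11.1%, 1.38 to 34.7), 7 of 37 at 33 weeks (18.9%, 7.96 to 35.2) and 0 of 19 in the library labelled CD8 KO (3 of 19 cells would be 15.8%, and the exact upper bound is 17.6%). By 2 of the 3 named markers alone they were 8, 2, 6 and 0 cells, all 16 of them among the 17. The P301S neg interval overlapped those of both P301S hom CD8 WT libraries and lay above that of the library labelled CD8 KO. Because the P301S neg cells were deeper, each cell was thinned to 1000 UMIs, which left 4 of 15, 1 of 17, 5 of 36 and 0 of 19. Ccr7 alone was found in 60.0%, 16.7%, 18.9% and 10.5% of Ccl5 low cells against 5.56%, 8.11%, 13.2% and 3.33% of Ccl5 high cells. In macrophages, which should lack it, 0.150% to 0.288% of cells held a Ccr7 UMI, at median depths of 5181.5 to 10489 UMIs. In the library labelled CD8 KO its 21 UMIs lay in 2 cells only, neither of them naive-like.

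Most naive-like cells were CD8 cells. Of the 17, 11 held Cd8a or Cd8b1 (7 in P301S neg, 1 and 3 in P301S hom at 30 and 33 weeks) and 1 held Cd4. Among the 80 cells, Dapl1 had 33 UMIs in 12 of the 17 naive-like cells and 3 UMIs in 1 of the 63 others, a ratio of 30.7 (9.65 to 157). Cd8b1 was 12.6-fold, Cd8a 11.2-fold, Klrd1 (CD94, a lectin receptor of NK and CD8 T cells) 9.18-fold and Tcf7 3.55-fold higher in the naive-like cells. S100a6 and S100a4, calcium-binding proteins of activated and memory T cells, had 0 UMIs in the naive-like cells against 261 and 194 in the others, at least 31.1-fold and 23.1-fold lower with 3 counts as the floor. Capg (an actin-capping protein), Rora (a nuclear receptor of type 17 and innate lymphoid cells) and Maf (a transcription factor of helper and type 17 cells) were also at 0, against 107, 90 and 65 UMIs. These folds describe how the naive-like cells differed and were not tested, since the state was chosen from the same counts.

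**Figure D1:**
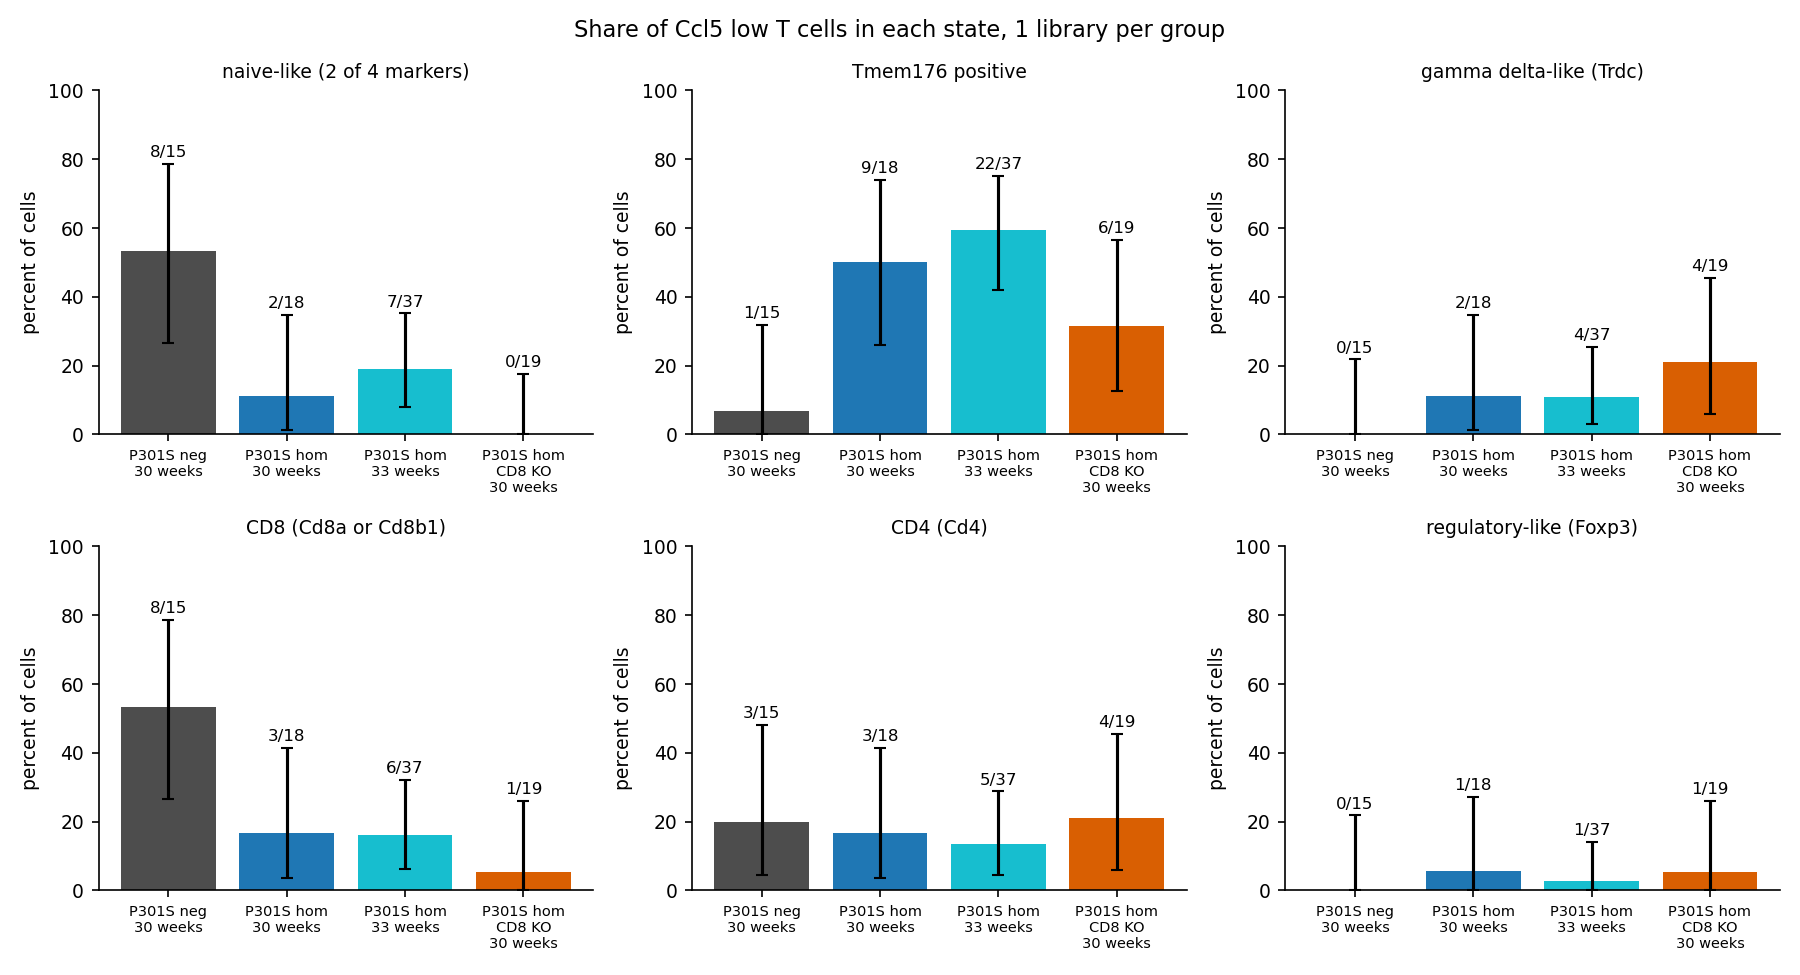
Percent of Ccl5 low T cells (y axis) in each of 6 states by library (x axis); bars are shares, whiskers exact 95% binomial intervals, and numbers are cells of cells. Naive-like and CD8 cells were each 8 of 15 in P301S neg, and cells with Tmem176a or Tmem176b RNA were 9 of 18 and 22 of 37 in P301S hom at 30 and 33 weeks.

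CD4 cells, holding a Cd4 UMI, were few in each library: 3 of 15 (20%), 3 of 18 (16.7%), 5 of 37 (13.5%) and 4 of 19 (21.1%), with intervals that overlapped. Of the 4 under the CD8 KO label, 1 also held Trdc, the delta chain constant gene, and is counted again below as gamma delta-like. Cd4 stood at 65.2, 67.0, 49.9 and 71.6 CPM, where CPM is a gene's UMIs scaled by all UMIs of the class. In macrophages 0.144% to 0.400% of cells held a Cd4 UMI. Cd4 gave 4 to 6 UMIs a library, and after thinning 1, 0, 1 and 1 cells stayed, so CD4 cells were at the limit of detection. With Cd8a or Cd8b1 in 8, 3, 6 and 1 cells, neither co-receptor was detected in 4, 12, 26 and 14 cells. The cells without a detected co-receptor were 26.7% of the class in P301S neg and 66.7%, 70.3% and 73.7% in the others. Without the set-aside cells they were 3 of 14, 10 of 16, 22 of 32 and 13 of 18. The CD8 KO label concerns these genes, so its share may not measure the same cells as the others. The P301S neg cells were also the deepest. After thinning, cells with Cd8a or Cd8b1 were 8 of 15 in P301S neg and 2 of 17 in P301S hom at 30 weeks. They were 4 of 36 at 33 weeks and 1 of 19 in the library labelled CD8 KO. The share without a detected co-receptor was not taken after thinning, so the part of depth in that share was not tested.

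Regulatory-like cells, holding a Foxp3 UMI, were 3 in all. The cell in P301S hom at 30 weeks had 1 UMI of Foxp3 with 9 of Ikzf2 (Helios, a transcription factor of regulatory T cells), 15 of Tnfrsf4 (OX40, a co-stimulatory receptor) and 2 of Ctla4 (an inhibitory receptor). The cell at 33 weeks had 1 UMI of Foxp3, 5 of Ikzf2, 15 of Tnfrsf4, 7 of Ctla4 and 1 of Il2ra (the interleukin 2 receptor alpha chain). The cell in the library labelled CD8 KO had 3 UMIs of Foxp3, 9 of Ikzf2 and 4 of Tnfrsf4 but none of a T cell receptor constant gene. No cell of the 15 in P301S neg held a Foxp3 UMI, where 3 cells would be 20% and the exact upper bound is 21.8%. That bound is for cells with a Foxp3 UMI, not for regulatory cells, since the gene gave at most 3 UMIs in a cell. A difference between libraries was not detectable at this number of cells.

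A further state was defined after the data were seen, by a UMI of Tmem176a (mm10 chromosome 6, 48840919 to 48847071, plus strand) or Tmem176b (48833818 to 48841496, minus strand), head-to-head genes of membrane proteins known from type 17 T cells, macrophages and dendritic cells. Tmem176 positive cells were 1 of 15 in P301S neg (6.67%), 9 of 18 in P301S hom at 30 weeks (50%, 26.0 to 74.0), 22 of 37 at 33 weeks (59.5%, 42.1 to 75.2) and 6 of 19 in the library labelled CD8 KO (31.6%, 12.6 to 56.6). The single P301S neg cell was the one with 1831 UMIs of S100a8. The interval at 33 weeks lay above that of P301S neg (0.169 to 31.9), and those of the other libraries overlapped it. Tmem176a UMIs numbered 0, 51, 70 and 25 and Tmem176b UMIs 1, 53, 84 and 40, so P301S neg stood apart from every P301S hom library. Of the 38 cells, 36 held Trac, Trbc1 or Trbc2, 32 held Cxcr6 (a chemokine receptor of tissue-resident T cells, in 13 of the 51 negative cells), 7 held Cd4 or CD8 genes and none was naive-like.

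Macrophages also express both genes, and Tmem176b was found in 79.5% to 95.7% of them and in 46.6% to 54.6% of endothelial cells. Free macrophage RNA was measured beside it, and free endothelial RNA was not. Apoe, the apolipoprotein most abundant in these macrophages, gave the reference. In the macrophages of the P301S hom libraries there were 0.0298, 0.0228 and 0.0299 Tmem176 UMIs per Apoe UMI (30 weeks, 33 weeks, CD8 KO label), against 4.00, 2.80 and 2.95 in Ccl5 low T cells. In Ccl5 high T cells of the same libraries the ratio was 0.111, 0.173 and 0.485. Tmem176 positive cells held 104 Tmem176 and 11 Apoe UMIs at 30 weeks and 154 and 27 at 33 weeks. Under the CD8 KO label they held 65 and 0. These cells were chosen by their Tmem176 UMIs, so a high Tmem176 count in them follows from the choice. Macrophages of P301S neg had 883 CPM of the Tmem176 genes, while the Ccl5 low cells of that library had 13.0 CPM.

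**Figure D2:**
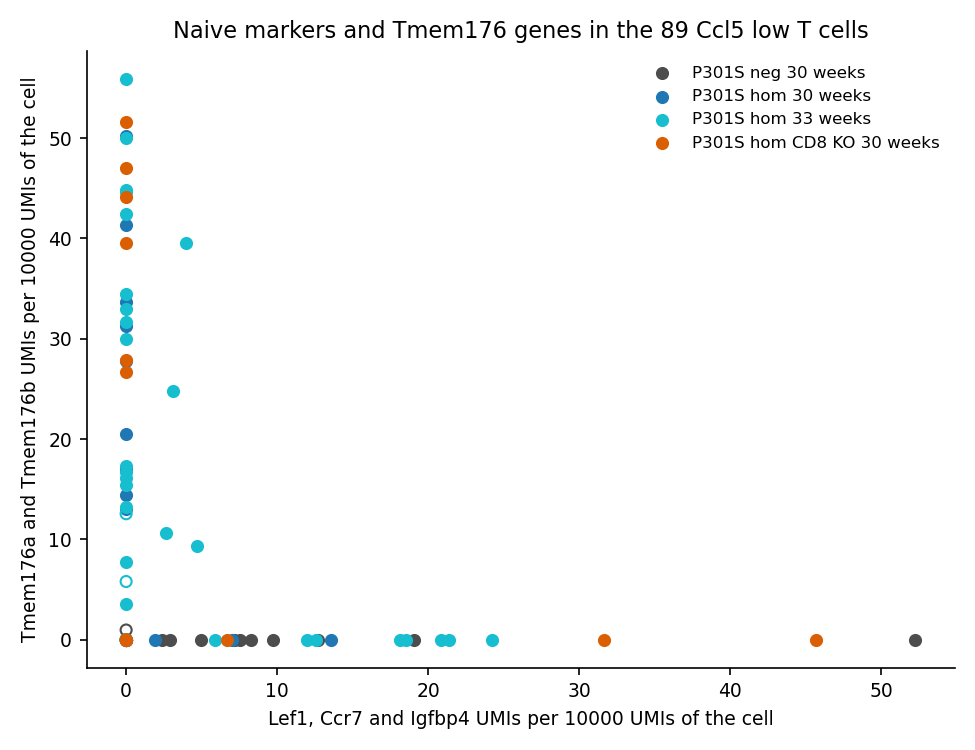
Each point is 1 of the 89 Ccl5 low T cells: UMIs of Lef1, Ccr7 and Igfbp4 per 10000 UMIs of the cell (x axis) against UMIs of Tmem176a and Tmem176b per 10000 (y axis), coloured by library, with open points for the 9 set-aside cells. Naive-like cells lie along the x axis and Tmem176 positive cells along the y axis, and no cell was both naive-like and Tmem176 positive.

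Within the 80 cells, 35 Tmem176 positive cells were set against the 28 that were neither positive nor naive-like. Il17a, the interleukin 17A gene, had 61 UMIs in 6 positive cells and none in the others, at least 15.7-fold. Tcrg-C1 (a gamma chain constant gene) had 58 against 0 UMIs, Actn2 (an alpha-actinin) 49 against 0, and Cd163l1 (a scavenger receptor of type 17 gamma delta cells) 27 against 0, at least 14.9-fold, 12.6-fold and 6.95-fold. Serpinb1a (a serine protease inhibitor) was 44.8-fold, Krt83 (a keratin) 27.8-fold and Lmo4 (a transcription cofactor) 20.5-fold higher. Tnfrsf4 was at 0 against 64 UMIs, at least 27.6-fold lower, or against 30 UMIs and at least 14.4-fold without the Foxp3 positive cells. The homing regulator Klf2 was 9.06 times lower, Cd27 (a co-stimulatory receptor) 13.6 times lower, Ms4a4b 4.37 times lower and S1pr1 (the receptor for egress from tissue) 4.10 times lower.

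Gamma delta-like cells, holding a UMI of the delta chain constant gene Trdc, were 0 of 15 in P301S neg, 2 of 18 in P301S hom at 30 weeks, 4 of 37 at 33 weeks and 4 of 19 in the library labelled CD8 KO, with overlapping intervals. Trdc was found in no cell of the macrophage or endothelial comparison sets, and in 11.1%, 2.70%, 13.2% and 30.0% of Ccl5 high T cells. Of the 10 cells, 8 were Tmem176 positive, 7 held Cd163l1, 6 a gamma constant gene and 3 Il17a. The Il17a cells had 8 UMIs of it beside 5 of Trdc (P301S hom at 30 weeks), 29 beside 13 (33 weeks) and 19 beside 12 (CD8 KO label). Another 3 Tmem176 positive cells without Trdc held 3, 1 and 1 Il17a UMIs. Trbc1 and Trbc2, like the gamma constant genes, are near-identical copies between which counting can split reads. All 10 also held a UMI of Trac, Trbc1 or Trbc2, so none met a stricter definition without alpha or beta chain RNA. The 2 Tmem176 negative ones were the only cells of the 10 with Trac (6 UMIs beside 1 of Trdc, and 2 beside 2). The first of them was also naive-like and the second also held a Cd4 UMI, so for both the name gamma delta-like rests on Trdc alone. Against the 27 other Tmem176 positive cells, the 10 had Il17a 40.6-fold and Cd163l1 29.0-fold higher, Cd40lg (CD40 ligand, a helper gene) at 0 against 27 UMIs and the kinase gene Lck 9.94 times lower.

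The sequence upstream of Il17a is shown because its UMIs were found in Tmem176 positive cells and in no other Ccl5 low cell. It covers chr1:20730655-20730904 on the plus strand (GRCm38.p6, RefSeq), the 250 bases before the start of the gene on chromosome 1, and capitals mark a match to the retinoid orphan receptor half-site AGGTCA, searched on both strands and found here on the reverse strand, 120 bases before the start. That motif occurred in 14% of 32851 promoters of this length, so a match is common and is given as a description.
Il17a: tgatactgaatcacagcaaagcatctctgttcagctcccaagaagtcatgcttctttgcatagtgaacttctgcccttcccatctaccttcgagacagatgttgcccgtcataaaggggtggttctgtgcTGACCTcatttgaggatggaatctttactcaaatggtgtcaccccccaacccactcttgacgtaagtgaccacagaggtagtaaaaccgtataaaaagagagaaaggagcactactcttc

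The transgene comparison, of P301S hom with P301S neg at 30 weeks, asked how these cells differed between cords with and without mutant tau. Genes with at least 20 UMIs in both sums together were measured, and a gene was counted as higher or lower when its CPM ratio passed 2-fold and its interval excluded 1. Of 843 genes, 114 were higher (13.5%) and 41 lower (4.86%), a description of these libraries rather than a test. Trimmed-mean (TMM) scaling moved log2 ratios down by 0.29 and turned this split to 64 higher and 77 lower. In P301S hom at 30 weeks 14 of the 18 cells held Xist and no Y-linked RNA, and in P301S neg 7 did and 2 held Y-linked RNA only, so sex differed between these libraries too and its part was not tested.

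Naive genes were lower in P301S hom. Of 7 measured, 6 were lower and none higher, with a median log2 ratio (10 CPM added) of -1.86 against 0.22 over all genes. Lef1 had 3 against 24 UMIs (log2 ratio -2.42), Ccr7 3 against 21 (-2.24), Dapl1 3 against 25 (-2.48), Satb1 (a chromatin organiser) 6 against 30 (-1.86), Klf2 28 against 90 (-1.31) and Tcf7 6 against 20 (-1.29). Il7r, the interleukin 7 receptor of naive and memory cells, was level at 45 and 59 UMIs (754 and 770 CPM). Both CD8 genes were lower, Cd8a at -3.65 and Cd8b1 at -3.24. Rasgrp2, an activator of the integrin regulator Rap, had 2 against 26 UMIs (-3.01). The summed naive list was also lower in Ccl5 high T cells, at 1378 against 2168 CPM. In kept cells that were not T cells by the rule it stood at 2129 against 4096 CPM, which is no measure of naive T cells. Endothelial cells held Klf2 in 99.1% of cells in both libraries, and Lef1 in 64.1% against 68.1%. They numbered 1160 against 2226, and their part in that sum was not tested.

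Genes of the Tmem176 positive state and of activated cells were higher in P301S hom. Tmem176a, at 51 UMIs in 9 cells against 0, was at least 21.8-fold higher. Trdc, at 20 UMIs in only 2 of 18 cells against 0, was at least 8.56-fold higher. Tmem176b had 53 against 1 UMIs (68.0-fold, 11.7 to 2737), Tcrg-C1 19 against 1 (24.4-fold), Id2 (an inhibitor of DNA-binding factors) 27 against 1 (34.7-fold) and Krt83 31 against 2 (19.9-fold). Sptssa (a subunit of the first sphingolipid enzyme) had 37 against 1, Ramp3 (a partner of peptide hormone receptors) 20 against 1 and Ckb (creatine kinase B) 29 against 3 UMIs. All 3 measured genes of the gamma delta and type 17 list of 18 were higher (Trdc, Tcrg-C1 and Maf), but Maf was at -0.094 when cells with Xist alone were compared. The summed list stood at 1691 CPM against 130 CPM, 13.0-fold (6.77 to 27.9). The innate lymphoid list, whose measured members include both Tmem176 genes, was higher in 4 of 4 (Rora, Cxcr6, Tmem176a and Tmem176b), with a median of 3.72 and 185 against 24 UMIs. Its sum stood at 3098 CPM against 313 CPM (9.89-fold, 6.45 to 15.8), and the part of innate lymphoid cells in the result was not tested. Of 10 memory and activation genes 7 were higher and none lower, led by S100a6 (158 against 25 UMIs, 8.11-fold, 5.30 to 12.9) and S100a4 (6.81-fold), with Il2rb (an interleukin 2 and 15 receptor chain) at 4.62-fold. Of 4 regulatory genes, Ikzf2, Tnfrsf4 and Capg were higher at 1.65, 1.30 and 3.07 on the log2 scale. The single Foxp3 positive cell of P301S hom at 30 weeks held 9 of 16 Ikzf2 and 15 of 20 Tnfrsf4 UMIs. Without it Ikzf2 fell to 0.65 and Tnfrsf4 turned direction to -0.46 (91.8 against 130 CPM), and neither passed 2-fold. Cxcr6 was 4.75-fold and Rgs1, a signalling regulator of resident cells, was higher by 1.82 (log2), while Cd69, also a residency and activation gene, was level (-0.08).

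Interferon-induced genes (5 measured) and MHC class I genes (7 measured) had no member counted in either direction, with medians of 0.07 and 0.11. Over all genes 13.5% were higher and 4.86% lower, so lists this short could hold none without being unchanged. Their sums were at 1.06-fold (0.802 to 1.40) and 1.15-fold (1.02 to 1.30). T cell receptor and signalling genes had 1 higher and 1 lower of 16. Without the set-aside cells the naive list stayed at 6 lower of 7, and the memory list at 7 higher of 10.

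**Figure D3:**
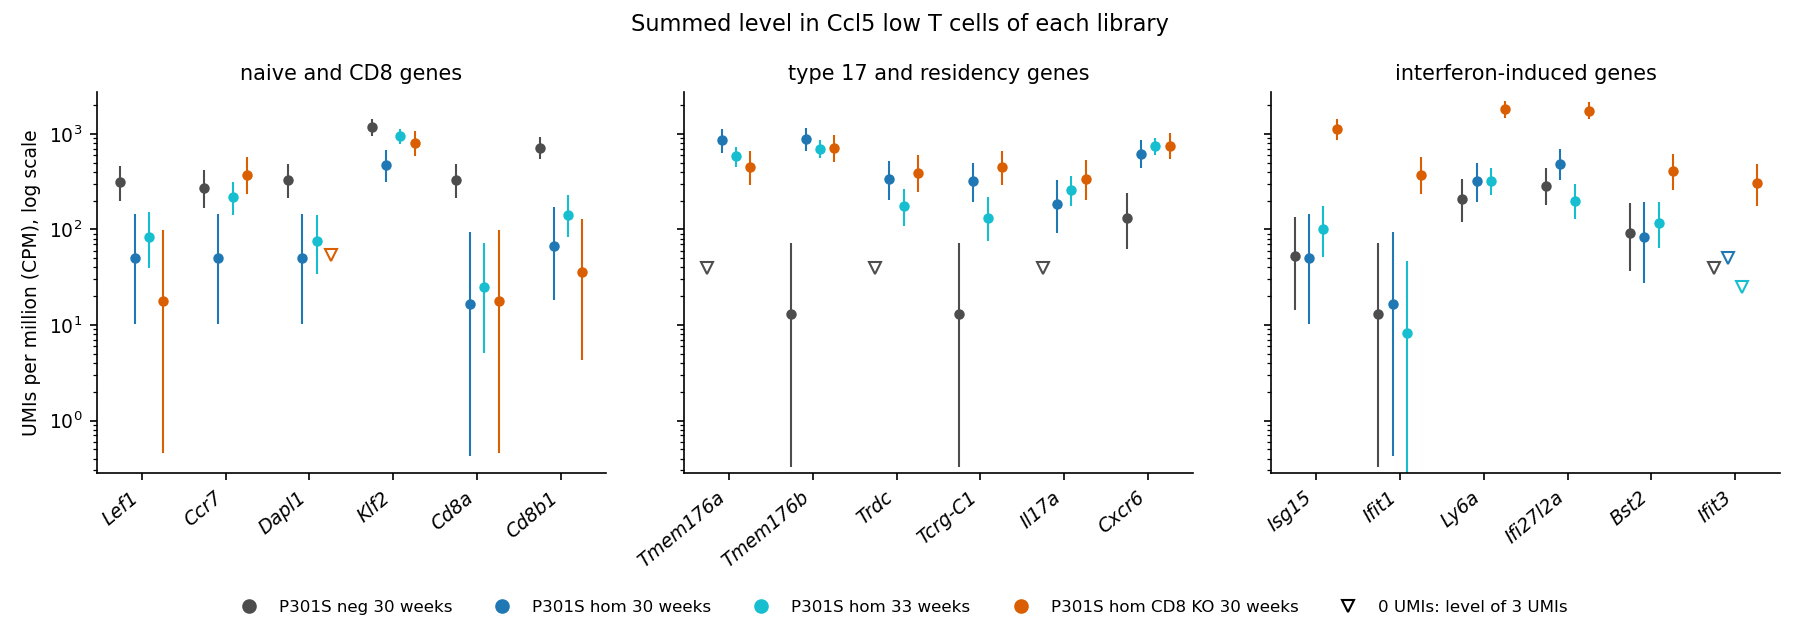
Summed level of 18 genes in the Ccl5 low T cells of each library, in CPM on a log axis; points are values, whiskers exact 95% Poisson intervals, and open triangles mark genes at 0 UMIs, drawn at the level of 3 UMIs. Cd8b1 was highest in P301S neg (717 CPM against 35.8 to 142), and Isg15 in the library labelled CD8 KO (1127 CPM against 50.2 to 99.9).

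The CD8 comparison, between P301S hom libraries of 30 weeks, put the one labelled CD8 KO over CD8 WT, and addressed what the remaining T cells look like where CD8 was altered. Of 833 genes, 42 were higher (5.04%) and 38 lower (4.56%). Interferon-induced genes were higher under the CD8 KO label, with 6 of 8 measured members higher and none lower, and a median log2 ratio of 2.0 against 0.05 over all genes. Isg15, a ubiquitin-like modifier, had 63 UMIs in 9 cells against 3 UMIs in 3 cells (22.4-fold, 7.33 to 112). Most of the 63 lay in 3 cells, with 12, 17 and 22 UMIs, and no other Ccl5 low cell of that library held more than 5. Ly6a (the surface protein Sca-1) had 101 against 19 UMIs (5.68-fold), Ifi27l2a 98 against 29 (3.61-fold) and Bst2 (tetherin, which holds budding virus on the cell) 23 against 5 (4.91-fold). Ifit1, an antiviral RNA-binding protein, had 21 UMIs in 3 cells against 1, and Ifit3, under the limit of 20 UMIs, had 17 UMIs in 3 cells of that library and 0 in the others. Ifi203 and Ifi47 were at 0.92 and 0.88 (log2) and were not counted. Socs1, an inhibitor of cytokine signalling named by its rank and not in the list, had 20 UMIs in 10 cells against 3 (7.12-fold, 2.11 to 37.4).

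In CPM, the whole list of 16 genes had 1513 (interval 1250.3 to 1815) in P301S neg, and in P301S hom at 30 weeks 1607 (1302 to 1963). At 33 weeks the level was 1448 (1241 to 1680.4) and under the CD8 KO label 7996 (7272 to 8773). The 3 CD8 WT libraries lay within each other's intervals and the library labelled CD8 KO far above them. The Ccl5 high T cells of the 4 libraries had 1604, 2411, 2305 and 2937 CPM, macrophages 535 to 808 CPM and endothelial cells 5991 to 7359 CPM, highest in P301S neg. Per cell, the median was 10.9, 15.3, 10.9 and 47.4 list UMIs per 10000, with highest cells at 57.3, 39.2, 49.1 and 441. Only 3 of the 89 cells were above 200, all 3 in the library labelled CD8 KO, and 1 Ccl5 high cell passed that level in each P301S hom library. The top cell held 171 of the 447 list UMIs (38.3%). Without the 3 highest cells of every library the levels were 869, 1198, 1300.0 and 2554 CPM (interval of the last 2118 to 3055) and the medians 10.01, 12.04, 9.91 and 21.6 per 10000, so the library labelled CD8 KO stayed the highest and the distance shrank. By state, the levels were taken without the set-aside cells. Cells neither naive-like nor Tmem176 positive had 2020, 3190, 3110 and 12533 CPM, the last falling to 7392 CPM without its top cell. Tmem176 positive cells had 989 and 1125 CPM in P301S hom at 30 and 33 weeks and 4511 CPM under the CD8 KO label, or 1294 CPM without 1 cell that held 56 of 74 UMIs.

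**Figure D4:**
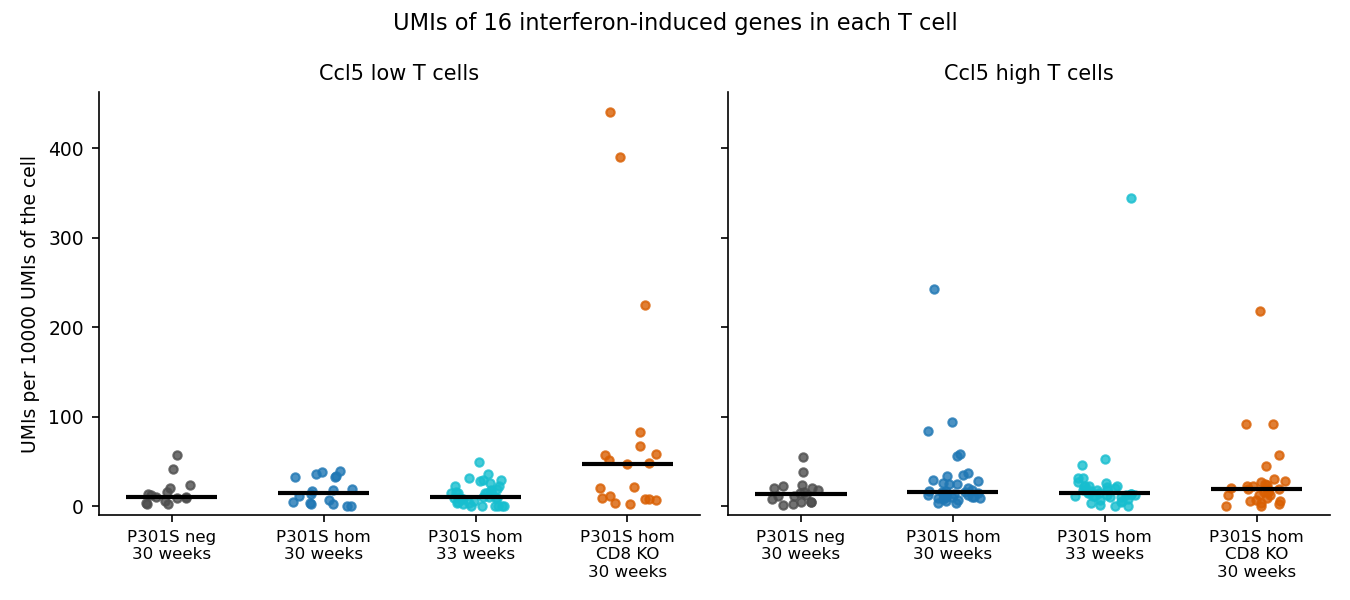
UMIs of 16 interferon-induced genes per 10000 UMIs of each cell (y axis) by library (x axis), for Ccl5 low (left) and Ccl5 high T cells (right); each point is a cell, spread sideways at random, and black lines are medians. The Ccl5 low median was 47.4 in the library labelled CD8 KO and 10.9 to 15.3 in the others, and 3 of its 19 cells were above 200.

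Promoters of Isg15, Bst2 and Socs1 are shown because these genes were higher together. Each is the 250 bases before the gene's start (RefSeq, GRCm38.p6): chr4:156200819-156201068, chr8:71537473-71537722 and chr16:10785537-10785786, all on the minus strand and printed in the gene's direction. Capitals mark matches to the interferon-stimulated response element, written as GAAA, any 2 bases and GAAA again, and searched on both strands. Isg15 had 3 overlapping matches starting 78, 72 and 66 bases before the start, Bst2 had 2 at 130 and 124, and Socs1 had 2 at 83 and 77. The motif occurred in 2.98% of 32851 promoters of this length and in 10 of 16 promoters (62.5%) of the 13 list genes found in the RefSeq table. A match describes the letters and shows no binding.
Isg15: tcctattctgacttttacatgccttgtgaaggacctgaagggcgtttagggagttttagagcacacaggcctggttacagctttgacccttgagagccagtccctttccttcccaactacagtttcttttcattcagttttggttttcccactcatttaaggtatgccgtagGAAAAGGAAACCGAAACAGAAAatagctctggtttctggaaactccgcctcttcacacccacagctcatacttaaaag
Bst2: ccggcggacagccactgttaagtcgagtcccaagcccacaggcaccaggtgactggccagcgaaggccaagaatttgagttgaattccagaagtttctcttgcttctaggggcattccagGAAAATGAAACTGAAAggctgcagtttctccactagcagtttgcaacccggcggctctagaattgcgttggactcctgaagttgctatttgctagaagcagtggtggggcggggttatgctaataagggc
Socs1: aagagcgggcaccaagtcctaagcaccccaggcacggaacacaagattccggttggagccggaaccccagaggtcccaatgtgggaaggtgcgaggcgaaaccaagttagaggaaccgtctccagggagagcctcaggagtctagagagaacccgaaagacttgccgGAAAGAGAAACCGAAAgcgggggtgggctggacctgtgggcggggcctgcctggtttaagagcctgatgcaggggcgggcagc

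Among the other lists of T cell genes, the gamma delta and type 17 list had 0 of 5 members counted (median 0.23) and the regulatory list 0 of 4 (0.25, or 1.23 without the Foxp3 positive cells). Over all genes 5.04% were higher and 4.56% lower, so lists this short could hold none without being unchanged. Of 4 measured naive genes Ccr7, with 21 UMIs in 2 cells against 3, and Satb1, with 16 against 6, were higher. Trac (32 against 13 UMIs) and Trbc1 (55 against 29) were higher and the surface glycoprotein gene Thy1 (17 against 41) was lower. Anxa1, an annexin of neutrophils and T cells, had 1 against 22 UMIs, Ramp1 (a calcitonin gene-related peptide receptor subunit) 16 against 47 and Gpr65 (an acid-sensing receptor) 5 against 18. All 8 neutrophil genes were lower (S100a9 had 2 against 1611 UMIs), and the CD8 WT library held 2 of the neutrophil-laden cells while the other held none. Both measured genes of the B and antigen-presenting list were higher, with a summed list of 358 against 12 UMIs. The cell with 234 UMIs of Cd74 is in that sum, and without the set-aside cells the list stood at 272 against 212 CPM. The mice differed in sex as well. Of the 19 cells under the CD8 KO label 8 held Y-linked RNA and none Xist, against 14 cells with Xist and none with Y-linked RNA alone in P301S hom at 30 weeks, so sex and the CD8 label cannot be told apart in this comparison.

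The age comparison set 33 over 30 weeks in P301S hom CD8 WT mice. Sex differed here too: 15 cells with Xist alone and 4 with Y-linked RNA alone at 33 weeks stood against 14 and 0 at 30 weeks, and its part was not tested. Of 1221 genes, 51 were higher (4.18%) and 48 lower (3.93%), and TMM scaling, which moved log2 ratios up by 0.30, gave 84 and 22. Proliferation genes were higher at 33 weeks, 5 of 6 measured with a median of 2.87 against -0.10 over all genes, but few cells carried them. Stmn1, a microtubule regulator, had 66 UMIs in 7 cells against 0, at least 10.9-fold. Mki67, the classical marker of dividing cells, had 23 UMIs in 2 cells, 20 of them in a cell that also held 1851 UMIs of Hbb-bs. Without the set-aside cells 3 of 4 were higher, at a median of 1.42. Tmpo (a nuclear lamina protein) had 25 against 1 UMIs and H2afx (a histone variant) 32 against 2. In Ccl5 high T cells the summed proliferation list went the other way, at 1755 CPM at 33 weeks against 4284 CPM at 30 weeks.

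Naive genes were higher at 33 weeks in 3 of 6 measured: Ccr7 with 26 against 3 UMIs (4.31-fold, 1.32 to 22.2), Satb1 with 33 against 6 (2.73-fold) and Klf2 with 113 against 28 (2.01-fold). The summed naive list stood at 3900 CPM in P301S neg, 1892 CPM in P301S hom at 30 weeks, 3246 CPM at 33 weeks and 2683 CPM in the library labelled CD8 KO. The 30-week P301S hom library was thus the lowest in Ccl5 low cells. In the same order, Ccl5 high T cells had 2168, 1378, 1873 and 1244 CPM. Kept cells that were not T cells by the rule had 4096, 2129, 2415 and 2650 CPM, a level that includes the Klf2 and Lef1 RNA of endothelial cells. Of 5 gamma delta and type 17 genes, Tcrg-C1 and Tcrg-C2 were lower at 33 weeks (2.39 and 2.41 times), and of 5 regulatory genes Ikzf2 (5.36 times) and Tnfrsf4 (2.24 times). Both rest on few cells. Without the Foxp3 positive cell at 30 weeks Ikzf2 was at -1.21 and Tnfrsf4 turned to 0.65 (150 CPM at 33 weeks against 91.8), and without the Foxp3 positive cells of both libraries they were at -2.91 and -1.53, from 1 and 3 UMIs at 33 weeks. Gimap9, a GTPase of lymphocyte survival, had 28 against 3 UMIs, and Gch1 (the first enzyme of tetrahydrobiopterin synthesis) 27 against 3. Tnfsf11 (RANK ligand) had 7 against 20 UMIs, Gpr65 6 against 18 and Glrx (a glutaredoxin) 5 against 17. The erythroid list was higher in 7 of 7, from 3 cells.

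Against the Ccl5 high T cells (123 cells), the Ccl5 low cells had less RNA of cytotoxic and NK receptor genes, a description that the Ccl5 limit partly fixes. The cytotoxic list without Ccl5 stood at 1027 CPM (321 UMIs) against 4876 CPM (2159 UMIs). Klre1, an NK lectin receptor, had 0 against 99 UMIs, Klra7 0 against 58, Eomes (a transcription factor of cytotoxic cells) 0 against 30, Gzmk (granzyme K) 5 against 121, Gzmb (granzyme B) 2 against 54 and the chemokine gene Xcl1 13 against 218. Higher in the Ccl5 low cells were Serpinb1a (42.0-fold, 89 UMIs, of which 59 outside the set-aside cells), Ltb4r1 (the leukotriene B4 receptor, 43 against 1 UMIs, or 20 without the set-aside cells), Ramp3 (21.5-fold), Ramp1 (17.01-fold), Tnfsf11 (11.9-fold), Actn2 (11.1-fold), Lmo4 (9.61-fold) and Tnfrsf4 (8.63-fold, or 4.37-fold without the Foxp3 positive cells). S100a9 and Camp ranked first, from the neutrophil-laden cells.

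The libraries differed in which lists set the Ccl5 low cells apart. The naive list was higher in the Ccl5 low cells of every library, by 0.84, 0.45, 0.79 and 1.10 on the log2 scale. The gamma delta and type 17 list was lower in P301S neg (-2.10) and higher in the other libraries (3.10, 1.30 and 1.01). The CD8 list was higher in P301S neg (0.44) and lower in the others (-2.32, -2.31 and -1.27). The residency list was at -2.12 in P301S neg and -0.36, -0.51 and -0.20 in the others, and the interferon list was at 1.44 under the CD8 KO label and at -0.08, -0.58 and -0.67 in the CD8 WT libraries. These differences between libraries were not tested.

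**Figure D5:**
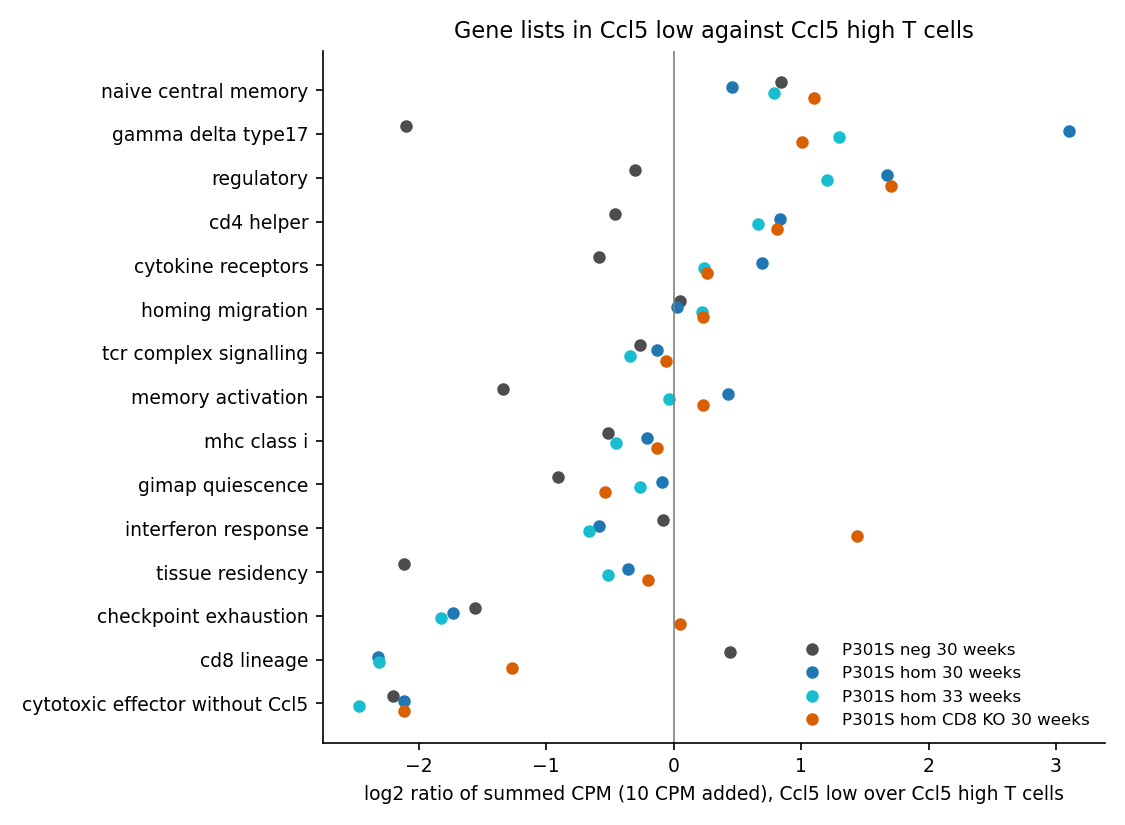
Log2 ratio of the summed CPM (10 CPM added) of 15 gene lists in Ccl5 low over Ccl5 high T cells (x axis), 1 point per library and list (y axis). The cytotoxic list, drawn without Ccl5, was at -2.47 to -2.12 in the 4 libraries, while the gamma delta and type 17 list was at -2.10 in P301S neg and 1.01 to 3.10 in the others.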

How the data were processed

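Raw UMI counts per gene and barcode were deposited by the authors, made with Cell Ranger 6.0.1 per the file headers and on mm10 per the submitters' processing notes; the annotation they used is not given in the sources used here. Cells with at least 500 UMIs, 200 genes and at most 15% mitochondrial UMIs were kept. Doublets were called with scrublet (scanpy 1.11.5, expected rate 6%), and no member was one. UMIs were summed over the class in each library and scaled to CPM, with exact Poisson, Clopper-Pearson and conditional-binomial intervals in scipy 1.17.1. Only the conditional-binomial intervals of ratios were run on simulated data. Those data were Poisson sums without spread between cells, so they check the calculation and not how the intervals cover such spread. Genes needed 20 UMIs in both sums together. In each comparison up to 8 genes a direction, seen in at least 5 cells of the higher library, were named by log2 ratio with 10 CPM added, and 12 against Ccl5 high cells; not all are printed. The members and 26 gene lists were chosen with earlier results of these data known. Positions and promoters came from GENCODE M21 and RefSeq (GRCm38.p6). Alternatives covered scaling, filters, definitions and single cells. Of the genes used, 1 naive marker and 1 interferon-list gene are not reported here by name or value.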

Additional observations from a re-analysis of the deposited data

How the results depend on the processing

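With 15 to 37 cells a library, depth and the number of cells limit every share, and a single cell can decide a gene. No paired analysis was possible because each group was 1 library. Of 220 alternatives to 28 shares 19 moved them, and of 411 to 51 named genes 18 moved and 3 reversed. Tnfrsf4 reversed without the Foxp3 positive cell at 30 weeks, to -0.46 for the transgene (log2, also without all Foxp3 positive cells) and 0.65 for age. Over all T cells the class was 45.5%, 32.7%, 49.3% and 38.8%. Tmem176 positive cells in P301S neg were 0 with 3 CD3 UMIs, thinned, without the set-aside cells or with 2 Tmem176 UMIs. Thinning left CD4 cells at 0%, 2.78% and 5.26% in P301S hom at 30 weeks, 33 weeks and the library labelled CD8 KO, and regulatory-like cells at 0 in the first pair. Regulatory-like cells under the CD8 KO label were 0 with Ccl5 at 0, and gamma delta-like cells without alpha or beta chain RNA were 0 in all libraries. With 1 of 4 naive markers, 37.8% (33 weeks) and 21.1% (CD8 KO label) were naive-like.

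Genes higher and lower for the transgene (114 and 41) were 64 and 77 under TMM, 34 and 13 at 50 UMIs and 70 and 25 in Xist-only cells, with 186 higher at 10 UMIs. For the CD8 label (42 and 38) they were 14 and 19 at 50 UMIs and 80 and 58 with mean CPM per cell, with 78 higher at 10 UMIs and 24 and 20 lower without the deepest cell and without the set-aside cells. For age (51 and 48) they were 84 and 22 under TMM, 16 and 11 at 50 UMIs, 92 and 76 at 10 UMIs, 105 and 74 with mean CPM per cell and 27 and 27 without the set-aside cells, with 25 higher without the deepest cell. Of 198 alternatives to 21 list medians 20 moved and 1 reversed: the gamma delta and type 17 median for the transgene was -0.094 in Xist-only cells, where Maf alone was measured. Fewer genes were tested at 50 UMIs; otherwise the cause was not tested.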
